A study of Mus musculus with 7 samples.

Results

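M2 and M1 are 2 ways of growing neurospheres from crest-lineage cells of the small bowel wall in mice, and the comparison described here sets the single M2 library against the single M1 library, 2 of 7 libraries in the series. In both, the cells came from Wnt1-Cre;tdTomato mice, in which Cre under the Wnt1 promoter switches on a red fluorescent reporter in the neural crest lineage, so tdTomato marks descent and not a present cell type. For M2, digested cells of the smooth muscle and myenteric plexus layer were first grown unsorted for 10 days as mixed spheroids, tdTomato+ cells were then sorted by FACS, and these were grown for another 10 days. For M1, tdTomato+ cells were sorted straight from the digest and grown for 10 days. Both cultures used the same medium, with basic FGF and EGF at 20 ng/mL each and heparin. Each library was RNA from about 50000 cells pooled equally from 3 mice of 1 month of age (2 females and 1 male). Total culture time, the time spent beside other cells, and the moment of sorting all differ between M2 and M1 and cannot be told apart. Xist and Y-linked levels, given below, also differed, and any difference in the mix of donor cells cannot be told apart from the method either. The 5 other libraries entered the scaling and are given for their levels, and the spheroid sort was also compared by the same rule. They were the tdTomato+ and tdTomato- cells sorted from 10-day mixed spheroids, tdTomato+ bowel cells sorted fresh, and the same kinds of adipose cells, fresh and as neurospheres.

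The enteric nervous system is built by crest cells that carry the transcription factor Sox10 and the receptors Ret and Ednrb, and that later become neurons or glia. Grown in FGF and EGF, such cells from the postnatal gut form floating spheres that hold progenitors, glia and some neurons. Sorting by a lineage reporter is meant to leave behind the muscle, mesothelium, fibroblasts and macrophages of the gut wall.

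Expression was deposited as CPM, that is reads scaled to a common library total, from which whole reads were recovered, 65301500 in M2 and 51885106 in M1. CPM is not divided by transcript length, so levels are compared between libraries and not between genes. The comparison takes the 14141 genes, of 27179 in the table, with 1 CPM or more in either library. Just inside that limit stood Tmem163, at 0.107 CPM in M2 and 1.00 CPM in M1, and just outside it Wnt7b, at 0.995 CPM in M2 and 0.771 CPM in M1. Each ratio is M2 over M1 on the log2 scale, after TMM scaling of the reads and with a prior of 2 reads. With 1 library on each side there is no replicate check, no p-value and no standard error. A gene is called higher or lower in M2 only by size, when it differed by at least 4-fold and its 95% exact binomial interval, which covers counting error alone, lay beyond 2-fold.

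By that rule 170 genes were higher in M2, which is 1.20% of the measured genes, and 1042 were lower in M2, which is 7.37%, together 8.57%. The counts given below for gene lists stand beside these shares, and a count near them is not read as a result about its list. The median log2 ratio over all measured genes was -0.08, and 77.0% of them lay within 2-fold. Of the genes called higher, 35 reached 100 CPM in M2, and of those called lower, 28 reached 100 CPM in M1. Only 2 of the higher genes had no read in M1, while 42 of the lower genes had no read in M2. Scaling by total counts in place of TMM lowers the ratios by 0.17 on the log2 scale, less for genes with few reads because of the prior, and ratios of that size are not read as differences.

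**Figure D1:**
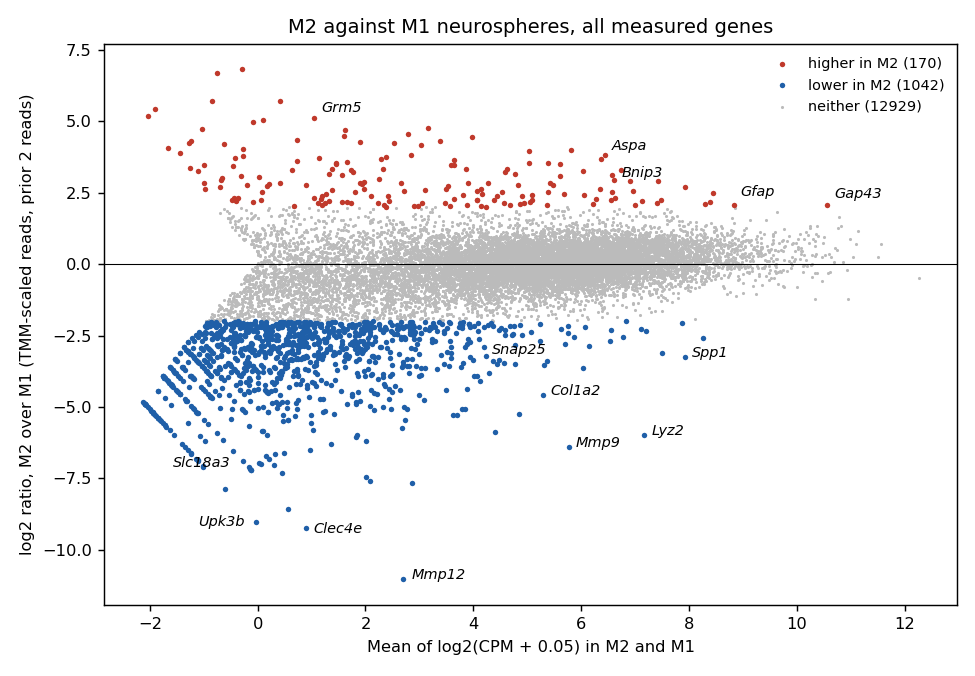
Each point is 1 measured gene, with the mean of its log2(CPM + 0.05) in M2 and M1 on the horizontal axis and its log2 ratio of M2 over M1 on the vertical axis. Red points (170) were higher in M2 and blue points (1042) were lower in M2. Mmp12 lies lowest, at -11.03.

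The label of both libraries as crest-derived held against the markers of that lineage. Sox10, the transcription factor of crest progenitors and glia, was at 661 CPM in M2 and 786 CPM in M1. Erbb3, the neuregulin receptor of the glial lineage, was at 457 CPM in M2 and 502 CPM in M1. The receptor tyrosine kinase Ret, which binds GDNF together with Gfra1, was at 274 CPM in M2 and 374 CPM in M1, and Gfra1 was at 346 CPM in M2 and 283 CPM in M1. Foxd3, an early crest factor, was at 90.1 CPM in M2 and 77.9 CPM in M1. These markers stood at similar levels in M2 and M1, with log2 ratios between -0.28 and 0.46.

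Of the 20 measured genes of the crest and enteric progenitor list, none was called higher and 1 was called lower in M2, and the list's median log2 ratio was -0.10. That gene, the mesenchymal transcription factor Twist1, had 3 reads in M2 and 54 reads in M1, a log2 ratio of -3.61 with a counting interval of -6.65 to -2.70. Ngfr, the low-affinity neurotrophin receptor p75, was at 365 CPM in M2 and 114 CPM in M1, and at a log2 ratio of 1.85 it did not reach 4-fold. At the other end, the SoxE factors Sox8 and Sox9 had log2 ratios of -1.24 and -0.82 and were not called. The progenitor set therefore was otherwise within 4-fold between M2 and M1.

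Of 19 measured glial genes, 3 were called higher and 2 lower in M2, and the median log2 ratio was 0.53. Gfap, the intermediate filament of glia, was at 874 CPM in M2 and 236 CPM in M1, a log2 ratio of 2.06 with a counting interval of 2.04 to 2.09. Gfra3, the co-receptor for artemin, was at 11.5 CPM in M2 and 2.43 CPM in M1. Cadm2, a cell adhesion molecule, was at 21.7 CPM in M2 and 5.57 CPM in M1. Scaled by total counts, Gfap and Cadm2 had log2 ratios of 1.89 and 1.96 and were no longer called. Several glial genes were higher in M2 without reaching 4-fold. Entpd2, the ATP-degrading ectoenzyme of enteric glia, was at 521 CPM in M2 and 240 CPM in M1. The calcium-binding protein gene S100b was at 311 CPM in M2 and 244 CPM in M1. Against this direction, the glutamate transporter Slc1a3 was at 10.7 CPM in M2 and 66.1 CPM in M1, and the retinaldehyde dehydrogenase Aldh1a1 was at 0.214 CPM in M2 and 6.59 CPM in M1.

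Among 12 measured Schwann myelin genes, 1 was called higher, none lower, and the median was 0.03. It was Gldn, gliomedin, which Schwann cells place at nodes of Ranvier, at 133 CPM in M2 and 13.1 CPM in M1. Mbp, myelin basic protein, was at 158 CPM in M2 and 58.4 CPM in M1 and was not called. In the oligodendrocyte lineage list, 1 of 11 measured genes was higher and 1 lower, with a median of -0.12. Ugt8a, which makes the myelin lipid galactosylceramide, was at 9.97 CPM in M2 and 1.503 CPM in M1, while the PDGF receptor Pdgfra was at 2.42 CPM in M2 and 20.9 CPM in M1. The melanocyte list, another crest fate, had 1 of 4 measured genes lower (Kit) and none higher.

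Of 19 measured pan-neuronal genes, 6 were lower and 1 higher, the median log2 ratio was -1.24, and 17 had a negative ratio. Snap25, the synaptic vesicle fusion protein, was at 6.34 CPM in M2 and 53.1 CPM in M1. The peripheral intermediate filament gene Prph was at 2.21 CPM in M2 and 12.1 CPM in M1, and the light neurofilament gene Nefl was at 0.322 CPM in M2 and 1.79 CPM in M1. Ina, another neuronal filament, was at 0.613 CPM in M2 and 7.07 CPM in M1. Dcx, the microtubule protein of young neurons, was at 0.873 CPM in M2 and 4.38 CPM in M1. The long noncoding RNA Snhg11 was at 0.0613 CPM in M2 and 13.8 CPM in M1. Other neuronal genes were held at closer levels, among them Elavl4, which encodes the RNA-binding protein HuD, at 125 CPM in M2 and 207 CPM in M1, and the tubulin gene Tubb3 at 303 CPM in M2 and 208 CPM in M1.

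Gap43, a growth cone protein that glia and Schwann cells can also make, went the other way. It had 2917 CPM in M2 and 781 CPM in M1, a log2 ratio of 2.07 with a counting interval of 2.06 to 2.09, and it had the greatest gain in CPM of all genes called. In tdTomato+ cells of the mixed spheroids it was at 3094 CPM, and in freshly sorted tdTomato+ bowel cells at 212 CPM. Because of Gap43, the summed CPM of the pan-neuronal list was higher in M2 (3835) than in M1 (2114) while the list's median was negative. Scaled by total counts, Gap43 had a log2 ratio of 1.90 and was not called.

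Of 18 measured transmitter and subtype genes, 6 were lower and none was higher in M2, with a median of -0.81. Slc18a3, the vesicular acetylcholine transporter, had 2 reads in M2 and 509 reads in M1, a log2 ratio of -7.12 with an interval of -11.20 to -6.29. Calb2, calretinin, was at 0.168 CPM in M2 and 8.79 CPM in M1. Nos1, the nitric oxide synthase of inhibitory motor neurons, was at 0.521 CPM in M2 and 6.71 CPM in M1. The tachykinin precursor Tac1 was at 3.17 CPM in M2 and 42.4 CPM in M1, and the peptide precursor Cartpt at 4.26 CPM in M2 and 22.01 CPM in M1. The neuropeptide PACAP gene, Adcyap1, had 2 reads in M2 and 64 reads in M1, a log2 ratio of -4.16 with an interval of -8.23 to -3.25. Not every transmitter gene was lower, since Gal was at 328 CPM in M2 and 289 CPM in M1, Penk at 133 CPM in M2 and 156 CPM in M1, and the serotonin receptor Htr3a at 228 CPM in M2 and 109 CPM in M1. In freshly sorted tdTomato+ bowel cells Slc18a3 was at 118 CPM and Calb2 at 153 CPM, above both neurosphere libraries, and in tdTomato+ cells of mixed spheroids they were at 0.0929 CPM and 0.0309 CPM. The whole list summed to 902 CPM in M2, 998 CPM in M1, 247 CPM in tdTomato+ spheroid cells and 420 CPM in tdTomato- spheroid cells. In bulk RNA, fewer neurons, less RNA per neuron and less RNA from other cell types cannot be told apart.

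Neurogenic transcription factors gave 6 lower and 1 higher of 18 measured, with a median of -0.82. Tlx2, a homeobox factor needed for normal enteric ganglia in mice, was at 15.3 CPM in M2 and 0.867 CPM in M1, a log2 ratio of 4.26 with an interval of 3.88 to 4.78. It was at 27.0 CPM in fresh bowel cells and 2.34 CPM in tdTomato+ spheroid cells. The helix-loop-helix factors Ebf1 and Ebf2 were lower, Ebf1 at 0.168 CPM in M2 and 3.58 CPM in M1, and Ebf2 at 0.0919 CPM in M2 and 2.79 CPM in M1. Hand1 was at 0.153 CPM in M2 and 2.27 CPM in M1, whereas its relative Hand2, which enteric neurons need, was at 73.2 CPM in M2 and 60.7 CPM in M1. Bnc2, Neurod4 and Dlx5 were also lower, at log2 ratios of -3.20, -2.07 and -4.07, the last from 2 reads in M2 with an interval of -8.14 to -3.15. In the Notch list, 1 of 17 measured genes was lower (Notch4, 1.23 CPM in M2 and 11.6 CPM in M1), a share near the 7.37% of all measured genes. Of the 17, 15 had negative ratios and the median was -0.92.

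**Figure D2:**
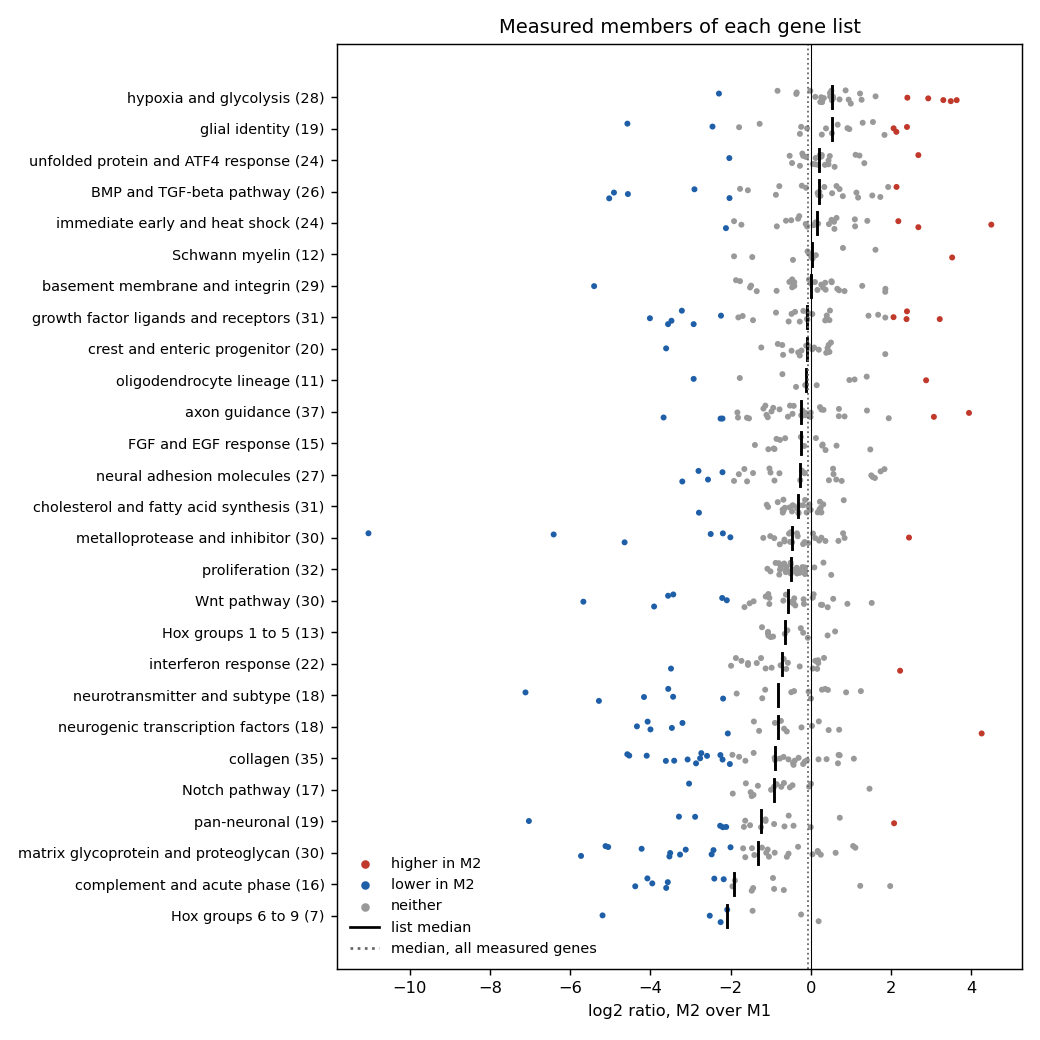
Each point is 1 measured gene of a list, placed by its log2 ratio of M2 over M1, with the number of measured genes in brackets. Red was higher in M2, blue lower in M2 and grey neither. Black bars are the medians of the lists drawn, which run from 0.54 for hypoxia and glycolysis to -2.09 for Hox groups 6 to 9.

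The 15 genes with the highest ratios among those with at least 10 CPM in M2 had log2 ratios between 3.73 and 5.12. Highest was Grm5, a metabotropic glutamate receptor, at 11.2 CPM in M2 and 0.328 CPM in M1, and in the 5 other libraries it did not exceed 0.750 CPM. Ucn2, the peptide urocortin 2, was at 43.8 CPM in M2 and 1.79 CPM in M1. The cell adhesion gene Cdh8 was at 31.2 CPM in M2 and 1.46 CPM in M1. Aqp1, a water channel, was at 69.1 CPM in M2 and 3.51 CPM in M1. C1ql2, a secreted synaptic organiser, was at 44.0 CPM in M2 and 2.45 CPM in M1, and the G-protein regulator Rgs8 was at 32.8 CPM in M2 and 2.00 CPM in M1. Aspa, the enzyme that splits N-acetylaspartate in glia, was at 306 CPM in M2 and 24.4 CPM in M1. The others of the 15 were Gpr50, Fosb, Tlx2, Otos, Btc, Epha5, Fgf5 and Chmp4c.

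In the tdTomato+ cells of the mixed spheroids, the stage from which M2 cultures start, 5 of the 15 genes were above their M2 level and 10 below it. Ucn2 stood at 128 CPM there, Rgs8 at 77.3 CPM, Epha5 at 146 CPM, Aqp1 at 100.4 CPM and Fosb at 120 CPM, all above M2. Below it stood, among others, Grm5 at 0.0155 CPM, Otos at 1.47 CPM, Tlx2 at 2.34 CPM, Cdh8 at 6.30 CPM and Gpr50 at 2.55 CPM. Gpr50 was at 28.5 CPM in tdTomato- spheroid cells. Of the 10 genes with the largest gains in CPM, Apod, the glial apolipoprotein D, was at 443 CPM in M2 and 66.3 CPM in M1. Vwa5a was at 777 CPM in M2 and 156 CPM in M1, and Ugp2, which makes UDP-glucose for glycogen, at 614 CPM in M2 and 162 CPM in M1. Ugp2 was not called with scaling by total counts, at a log2 ratio of 1.92. Anxa1, an annexin, was at 366 CPM in M2 and 87.5 CPM in M1, and the adaptor gene Dok4 at 315 CPM in M2 and 36.5 CPM in M1. Gap43, Gfap, Fos, Atf3 and Aspa complete the 10.

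**Figure D3:**
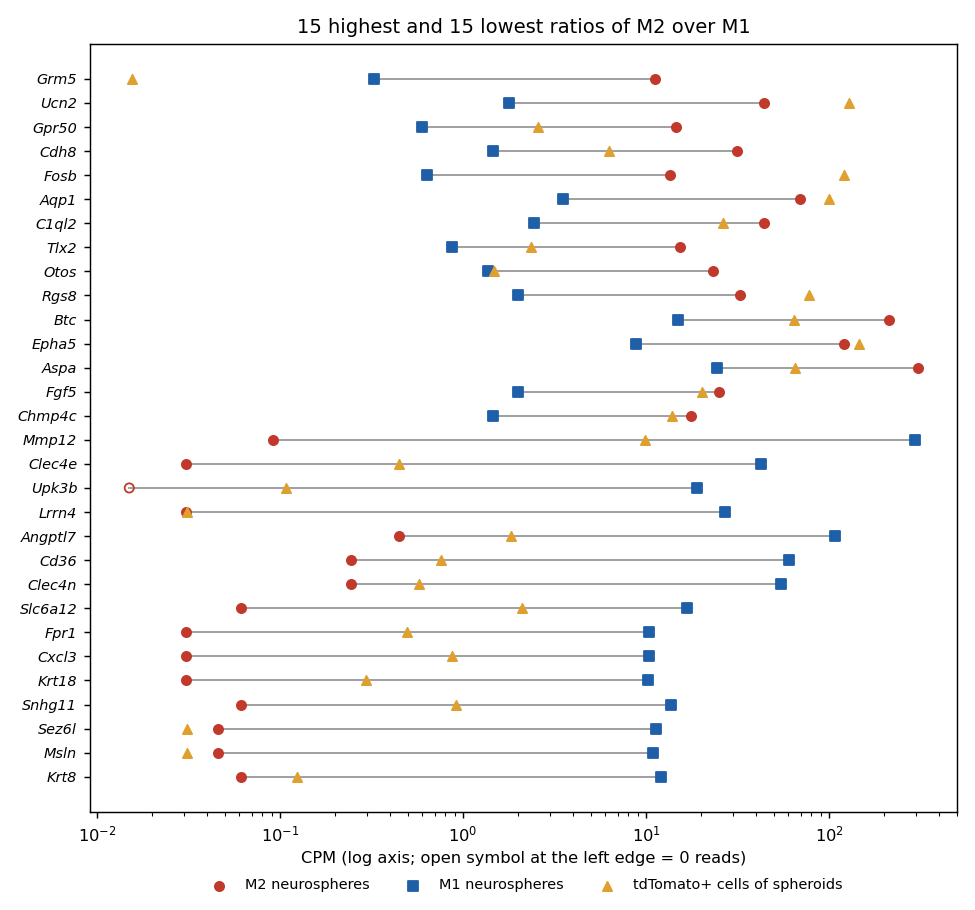
CPM on a log axis of the genes at both ends of the ratio scale, 15 each, from Grm5 at the top to Krt8 at the bottom. Red circles are M2, blue squares M1 and yellow triangles the tdTomato+ cells of mixed spheroids. Upk3b has an open circle because it had 0 reads in M2.

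Among 31 measured ligands and receptors, 4 were higher and 6 lower in M2, with a median of -0.09. Of the ligands, Artn (artemin) was at 247 CPM in M2 and 66.6 CPM in M1, and with scaling by total counts, at 1.89, it was not called. Bdnf was at 46.4 CPM in M2 and 9.98 CPM in M1, and its relative Ntf3 (neurotrophin 3) at 9.62 CPM in M2 and 1.14 CPM in M1. Gfra3, the receptor for artemin, was the other gene called higher. Gdnf, the ligand of Ret and Gfra1, was at 34.4 CPM in M2 and 14.3 CPM in M1 and was not called. Outside that list, Btc (betacellulin, an EGF-family ligand) was at 211 CPM in M2 and 15.01 CPM in M1, and Fgf5 at 25.1 CPM in M2 and 1.99 CPM in M1.

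The 6 genes called lower in this list follow, and the shares of ligands and receptors among all its members were not compared. Egfr, the receptor for the EGF in the medium, was at 1.06 CPM in M2 and 19.8 CPM in M1, a log2 ratio of -4.01 with an interval of -4.43 to -3.70. It was at 238 CPM in the tdTomato- spheroid cells and 4.10 CPM in the tdTomato+ spheroid cells. Ednra, an endothelin receptor, was at 5.79 CPM in M2 and 61.0 CPM in M1, while Ednrb, the endothelin receptor of crest cells, was at 147 CPM in M2 and 232 CPM in M1. Ntrk3, the receptor for neurotrophin 3, was at 0.521 CPM in M2 and 7.32 CPM in M1. Pdgfra, Kit and the ligand Igf2 were the other 3. The fibroblast growth factor receptor Fgfr1 was at 119 CPM in M2 and 245 CPM in M1 and was not called. None of 15 measured FGF and EGF response genes was called, with a median of -0.25, and the feedback inhibitor Dusp6 was at 376 CPM in M2 and 388 CPM in M1.

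Cell cycle genes showed no call in either direction. None of the 32 measured proliferation genes was called, but 29 of 32 had negative ratios and the median was -0.50. Mki67, which marks cycling cells, was at 115 CPM in M2 and 206 CPM in M1, and Top2a at 250 CPM in M2 and 326 CPM in M1. The replication clamp Pcna was at 195 CPM in M2 and 154 CPM in M1. Among 20 cell cycle inhibitors and p53 targets, the pro-apoptotic gene Pmaip1 was lower, at 0.766 CPM in M2 and 4.20 CPM in M1, and no other gene was called.

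Of 28 measured genes of low oxygen and glycolysis, 5 were higher and 1 lower in M2, with a median log2 ratio of 0.54. Cells short of oxygen stabilise HIF proteins, which bind ACGTG and GCGTG words and switch on glycolysis, lactate export and mitophagy. Slc16a3, the lactate exporter MCT4, was at 41.6 CPM in M2 and 3.74 CPM in M1. Bnip3, a mitophagy receptor, was at 255 CPM in M2 and 37.8 CPM in M1. Pdk1, which holds pyruvate back from mitochondria, was at 74.0 CPM in M2 and 15.7 CPM in M1. Ankrd37, a HIF target in cultured cells, was at 8.58 CPM in M2 and 0.829 CPM in M1, and Adm, the peptide adrenomedullin, at 4.50 CPM in M2 and 0.482 CPM in M1. In all, 23 of the 28 had positive ratios, among them, not called, Ldha (lactate dehydrogenase A) at 2529 CPM in M2 and 1188 CPM in M1 and Tpi1 at 735 CPM in M2 and 271 CPM in M1. Vegfa, a HIF target that was not called, was at 69.1 CPM in M2 and 64.1 CPM in M1. Car9, carbonic anhydrase 9, another HIF target, was called lower, at 0.459 CPM in M2 and 2.68 CPM in M1. In tdTomato+ spheroid cells Bnip3 was at 86.1 CPM and Slc16a3 at 34.9 CPM.

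The promoters of 3 of these genes are shown to place the words bound by HIF beside the expression values. They come from RefSeq on GRCm38.p6 and run from 250 bases before to 50 bases after the gene start, 5′ to 3′ on the gene's strand. Capitals mark ACGTG and GCGTG on either strand (CACGT and CACGC on the other strand), and overlapping words run together. The windows are chr7:138909457-138909756, minus strand for Bnip3, chr11:120948817-120949116, plus strand for Slc16a3 and chr8:45999801-46000100, minus strand for Ankrd37.
Bnip3: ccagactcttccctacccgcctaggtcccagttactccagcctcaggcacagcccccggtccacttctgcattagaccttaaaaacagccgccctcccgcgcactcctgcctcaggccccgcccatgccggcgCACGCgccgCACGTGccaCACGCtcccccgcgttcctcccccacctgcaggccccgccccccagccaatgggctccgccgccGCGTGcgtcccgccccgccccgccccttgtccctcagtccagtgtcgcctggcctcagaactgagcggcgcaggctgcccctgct
Slc16a3: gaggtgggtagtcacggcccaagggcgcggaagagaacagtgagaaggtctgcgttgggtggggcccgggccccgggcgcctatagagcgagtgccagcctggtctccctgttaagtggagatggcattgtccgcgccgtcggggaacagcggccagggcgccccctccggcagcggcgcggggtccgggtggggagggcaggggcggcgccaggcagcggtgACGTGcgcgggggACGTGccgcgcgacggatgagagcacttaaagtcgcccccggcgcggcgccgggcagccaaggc
Ankrd37: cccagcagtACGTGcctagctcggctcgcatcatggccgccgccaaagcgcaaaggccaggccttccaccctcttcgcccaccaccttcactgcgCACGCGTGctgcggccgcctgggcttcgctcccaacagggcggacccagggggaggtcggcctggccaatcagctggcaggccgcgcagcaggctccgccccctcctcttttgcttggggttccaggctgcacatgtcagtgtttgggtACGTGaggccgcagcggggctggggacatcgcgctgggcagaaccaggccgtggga
Counting each overlapping position, the Bnip3 window held 5 words, the Slc16a3 window 2 and the Ankrd37 window 4. The windows of Pdk1 and Adm held 2 each. Of all 32851 promoter windows in the table, 43.8% held at least 1 word and 8.93% held 3 or more. Of the 27 measured list genes with a window, 25 held a word in at least 1 of their windows, called or not. That count is per gene and the shares above are per window, so they are not compared. A match describes these letters and is not evidence of binding.

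A group of genes around the aryl hydrocarbon receptor was noticed only after the values were seen, so its counts are a description. This receptor is a ligand-activated transcription factor that pairs with Arnt and binds GCGTG. Ahr itself was at 144 CPM in M2 and 30.6 CPM in M1. Ahrr, its repressor and target, was at 206 CPM in M2 and 47.0 CPM in M1, and Tiparp, another target that dampens it, was at 285 CPM in M2 and 69.1 CPM in M1. All 3 were called higher, at log2 ratios of 2.40, 2.31 and 2.22, and Ahrr and Tiparp were at most 35.3 CPM and 143 CPM in the 5 other libraries. The classical target Cyp1a1 was not called and had 0.720 CPM in M2 and 2.02 CPM in M1, Cyp1b1 had 13.3 CPM in M2 and 11.8 CPM in M1, and Nqo1 had 12.5 CPM in M2 and 36.2 CPM in M1. The promoters of Ahrr (chr13:74292282-74292581, minus strand) and Tiparp (chr3:65528197-65528496, plus strand) are printed with the same words in capitals.
Ahrr: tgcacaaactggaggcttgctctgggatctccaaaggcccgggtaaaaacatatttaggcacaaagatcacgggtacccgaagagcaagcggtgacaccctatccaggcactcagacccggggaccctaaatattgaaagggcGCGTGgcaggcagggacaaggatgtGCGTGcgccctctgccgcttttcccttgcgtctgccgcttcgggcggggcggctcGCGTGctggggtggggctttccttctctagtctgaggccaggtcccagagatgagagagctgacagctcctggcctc
Tiparp: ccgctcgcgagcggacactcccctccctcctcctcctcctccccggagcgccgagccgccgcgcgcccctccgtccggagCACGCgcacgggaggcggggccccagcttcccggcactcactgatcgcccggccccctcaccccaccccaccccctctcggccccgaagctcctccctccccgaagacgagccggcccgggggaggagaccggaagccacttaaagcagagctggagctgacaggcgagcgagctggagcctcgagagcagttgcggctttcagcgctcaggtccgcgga
The Ahrr window held 3 words, all GCGTG, and the Tiparp window 1.

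Of 24 measured immediate early and heat shock genes, 3 were higher and 1 lower, with a median of 0.15 that became -0.02 with scaling by total counts. Fos was at 673 CPM in M2 and 167 CPM in M1, Fosb at 13.4 CPM in M2 and 0.636 CPM in M1, and Atf3 at 581 CPM in M2 and 102 CPM in M1. Jun, the partner of Fos, was at 725 CPM in M2 and 572 CPM in M1. The early gene Egr1 was at 158 CPM in M2 and 115 CPM in M1. Hspa1b was called lower, at 6.20 CPM in M2 and 30.5 CPM in M1, but it is nearly identical to Hspa1a, so the split of reads between them is uncertain. Fos was at 1953 CPM in tdTomato+ spheroid cells and 3221 CPM in fresh bowel cells, both above M2. Fosb, at 120 CPM and 31.3 CPM in the same order, was also above M2. Atf3 was at 625 CPM in tdTomato+ spheroid cells, but at 492 CPM in fresh bowel cells, below M2. Any part of cell handling in these levels was not tested.

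The unfolded protein and ATF4 list had 1 gene higher (Atf3) and 1 lower (the cystine transporter Slc7a11, 6.49 CPM in M2 and 30.1 CPM in M1) of 24 measured, with a median of 0.21. Slc7a11 was not called with TMM over M2 and M1 alone, at -1.96. In the cholesterol and fatty acid list, 1 of 31 genes was lower, with a median of -0.31. The 13 mitochondrially encoded genes, a list also made after the values were seen, all had positive ratios, with a median of 1.06. Only ND3 was called, at 10.1 CPM in M2 and 0.925 CPM in M1, and nuclear copies of mitochondrial genes make its count uncertain. The summed CPM of the 13 was 9255 in M2 and 5818 in M1.

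**Figure D4:**
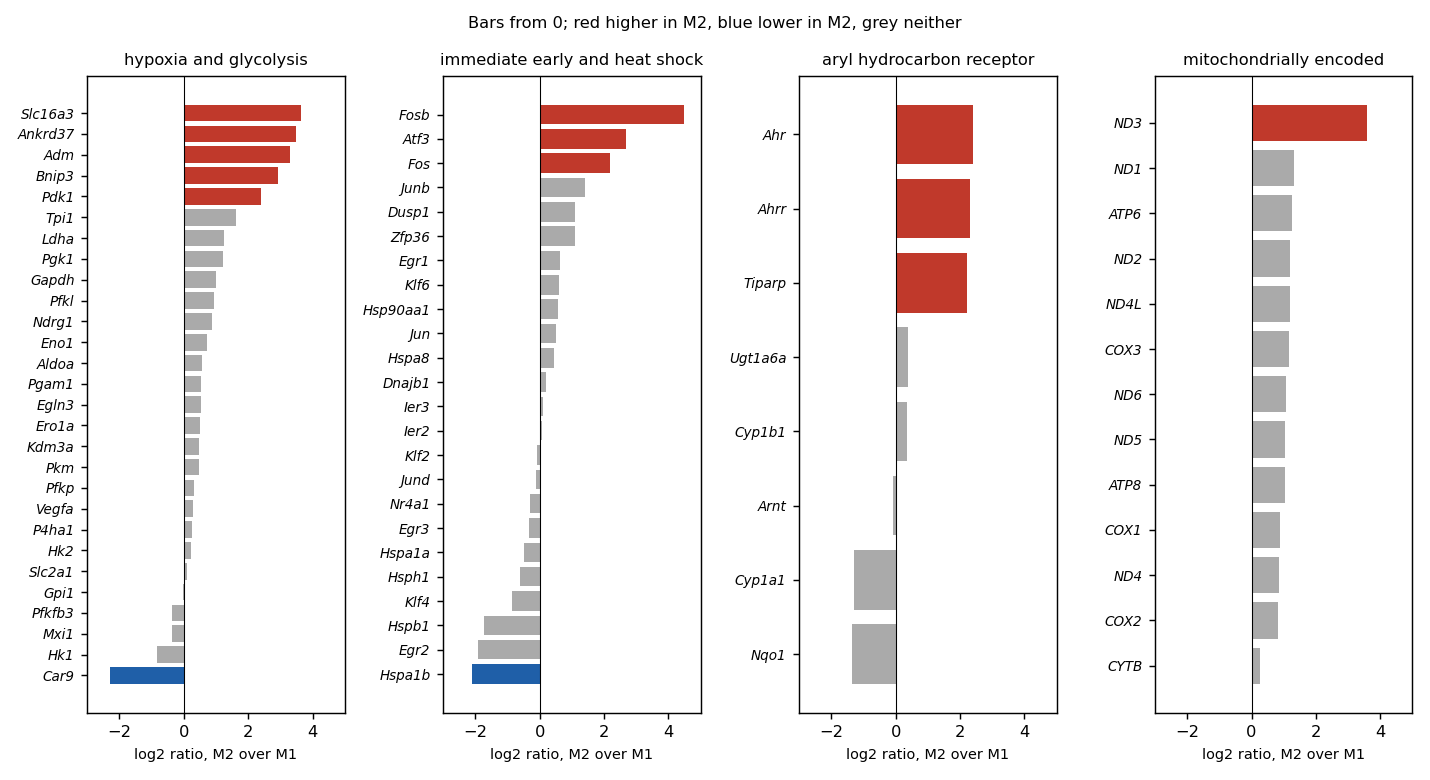
Bars give the log2 ratio of M2 over M1 for the measured genes of 4 lists, from 0. Slc16a3 leads the hypoxia and glycolysis list at 3.64 and Fosb the immediate early list at 4.50. The aryl hydrocarbon receptor and mitochondrial lists were chosen after the values were seen.

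Many extracellular matrix genes were lower in M2. Of 35 measured collagen genes, 13 were lower and none higher, with a median of -0.90. Col1a2, a chain of fibrillar collagen I, was at 7.52 CPM in M2 and 203 CPM in M1, and its partner Col1a1 at 24.7 CPM in M2 and 203 CPM in M1. Col3a1 was at 117 CPM in M2 and 795 CPM in M1. Col11a1, which unlike those was higher in tdTomato+ than in tdTomato- spheroid cells (101 CPM against 4.45 CPM), was at 59.2 CPM in M2 and 319 CPM in M1. Basement membrane collagen Col4a1 was at 374 CPM in M2 and 622 CPM in M1 and was not called. Among 29 measured basement membrane and integrin genes, 1 was lower (Lamc3, 0.0613 CPM in M2 and 4.43 CPM in M1), and the median was 0.00.

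Of 30 matrix glycoproteins and proteoglycans, 11 were lower and none higher, with a median of -1.31. Among the small proteoglycans, Bgn (biglycan) was at 57.7 CPM in M2 and 566 CPM in M1, Dcn (decorin) at 11.04 CPM in M2 and 144 CPM in M1, and Lum (lumican) at 7.64 CPM in M2 and 98.4 CPM in M1. Spp1, osteopontin, was at 74.1 CPM in M2 and 802 CPM in M1. Thbs1 (thrombospondin 1) was at 2.30 CPM in M2 and 87.2 CPM in M1, and Mgp (matrix Gla protein) at 0.781 CPM in M2 and 48.6 CPM in M1. Sparc was at 2968 CPM in M2 and 2819 CPM in M1, and Tnc (tenascin C) at 1091 CPM in M2 and 1862 CPM in M1, neither called. Of 30 proteases and inhibitors, 6 were lower and 1 higher. Mmp12, macrophage elastase, had the lowest ratio of all, at 0.0919 CPM in M2 and 293 CPM in M1, a log2 ratio of -11.03 with an interval of -12.91 to -10.34. Mmp9, gelatinase B, was at 5.53 CPM in M2 and 534 CPM in M1, and in tdTomato- spheroid cells it was at 15546 CPM. Mmp19 was the higher one, at 114 CPM in M2 and 23.5 CPM in M1.

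Markers of other cell types were lower in M2 in most lists, and these are the values that stand beside the losses above. Macrophage markers summed to 36.7 CPM in M2 and 1420 CPM in M1, of which Lyz2 (lysozyme) made up 17.1 CPM and 1213 CPM. Of 12 measured macrophage genes, 7 were lower and none higher, with a median of -3.17. Among those called lower, Csf1r was at 4.35 CPM in M2 and 31.8 CPM in M1. Adgre1 was at 2.11 CPM in M2 and 30.4 CPM in M1, and Cd68 at 1.49 CPM in M2 and 46.4 CPM in M1. The 5 not called were Mrc1, C1qa, C1qb and C1qc, at log2 ratios of -1.94, -1.89, -0.94 and -1.44, and Cx3cr1 at 0.15. Freshly sorted tdTomato+ bowel cells had 5412 CPM of the whole macrophage list, tdTomato+ spheroid cells 44.6 CPM and tdTomato- spheroid cells 122 CPM. The M1 value thus lay between those of fresh cells and of all spheroid-derived libraries.

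Mesothelial markers gave the same order. All 9 measured were lower in M2, with a median of -6.65, and they summed to 3.14 CPM in M2 and 125 CPM in M1, against 1849 CPM in fresh cells and 1.78 CPM in tdTomato+ spheroid cells. Upk3b, a uroplakin of mesothelium, had 0 reads in M2 and 988 reads in M1, at least 368-fold lower against a floor of 3 reads per library. Msln (mesothelin) had 3 reads in M2 and 563 reads in M1, a log2 ratio of -6.95 with an interval of -9.99 to -6.16, and Wt1 was at 0.0919 CPM in M2 and 4.74 CPM in M1. Among the simple keratins, Krt18 had 2 reads in M2 and 531 reads in M1, a log2 ratio of -7.18 with an interval of -11.26 to -6.35. The epithelial list, with 3 of 4 measured genes lower, rests on Krt8, Krt18 and Krt19, which mesothelium also makes, and Epcam was at 0.276 CPM in M2 and 0.154 CPM in M1 while Cdh1 had 0 reads in both.

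Fibroblast markers were lower in 8 and higher in 1 of 15 measured genes, with a median of -2.59. The higher one was Ly6a, at 5.25 CPM in M2 and 1.04 CPM in M1. The list summed to 3275 CPM in M2 and 4977 CPM in M1, against 30107 CPM in tdTomato- spheroid cells. Most of the M2 sum came from members that were not called, so the sums differed less than the median member did. Of 11 measured smooth muscle genes, 5 were lower, with Myh11, smooth muscle myosin, at 0.368 CPM in M2 and 6.01 CPM in M1, and the list summed to 110 CPM in M2 and 289 CPM in M1. Of 8 genes of interstitial cells of Cajal, the gut pacemaker cells, 5 were lower, with the chloride channel Ano1 at 0.383 CPM in M2 and 29.6 CPM in M1. All 4 measured mast cell genes and both measured lymphocyte genes were lower, and the adipocyte list had 2 of 5 lower. Endothelial genes were split, 2 higher and 3 lower of 7, with Pecam1 at 2.05 CPM in M2 and 0.463 CPM in M1 and Cdh5 at 0 reads in both. Pericyte genes were 1 higher and 2 lower of 7, and neither the 4 measured acinar genes nor the 1 measured skeletal muscle gene was called. No erythroid gene was measured. What part these other cells had in the matrix, immune and neuronal differences was not tested.

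**Figure D5:**
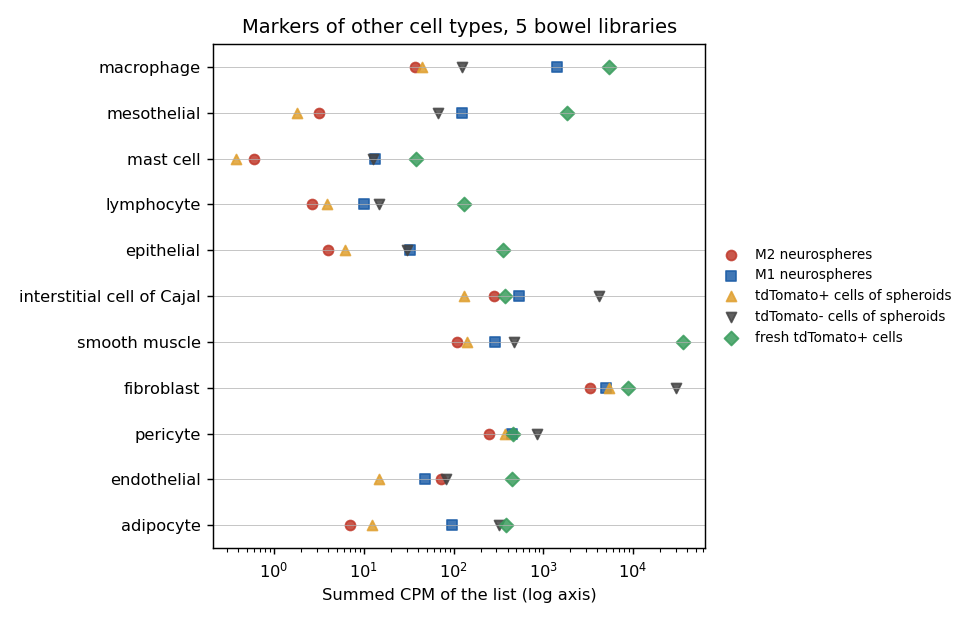
Summed CPM of each marker list, on a log axis, in 5 bowel libraries. M2 (red circles) lies below M1 (blue squares) in 10 of the 11 lists drawn, the exception being endothelial. Acinar, skeletal muscle and erythroid lists are not drawn. Of these, the acinar list summed higher in M2, at 246 CPM against 94.0 CPM in M1. For macrophage and mesothelial markers, fresh tdTomato+ cells lie highest, at 5412 and 1849 CPM.

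Of the 15 genes with the lowest ratios among those with at least 10 CPM in M1, 5 were members of the lists of other cell types (Upk3b, Lrrn4, Msln, Krt8 and Krt18) and 10 were not. The 15 were Mmp12, Clec4e, Upk3b, Lrrn4, Angptl7, Cd36, Clec4n, Slc6a12, Fpr1, Cxcl3, Krt18, Snhg11, Sez6l, Msln and Krt8. Clec4e and Clec4n are lectin receptors of myeloid cells and Fpr1 is the formyl peptide receptor of phagocytes. Clec4e had 2 reads in M2 and 2215 reads in M1, a log2 ratio of -9.23 with an interval of -13.32 to -8.42. Cd36, a scavenger receptor of macrophages and fat cells, was at 0.245 CPM in M2 and 60.7 CPM in M1. Angptl7, a secreted angiopoietin-like protein, was at 0.444 CPM in M2 and 108 CPM in M1. Of the 10 largest losses in CPM, Gpnmb, a glycoprotein of macrophages and pigment cells, stood apart, with 109 CPM in M2, 509 CPM in M1 and 665 CPM in tdTomato+ spheroid cells. With TMM over M2 and M1 alone its log2 ratio was -1.98 and it was not called. The thrombin receptor F2r was at 42.6 CPM in M2 and 283 CPM in M1, and Mmd at 61.4 CPM in M2 and 354 CPM in M1.

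Complement and acute phase genes had 7 lower and none higher of 16 measured, with a median of -1.92. C3, the central complement protein, was at 2.99 CPM in M2 and 70.8 CPM in M1, and Cd55, which restrains complement, at 3.98 CPM in M2 and 76.3 CPM in M1. The list's summed CPM was nevertheless 1434 in M2 and 835 in M1, because Serpina3n was at 870 CPM in M2 and 249 CPM in M1 and C4b at 520 CPM in M2 and 250 CPM in M1. Serpina3n had a log2 ratio of 1.98, just under the limit, and was called with TMM over M2 and M1 alone at 2.05. Of 17 chemokines and cytokines, 2 were higher and 3 lower. Cxcl14 was at 38.7 CPM in M2 and 3.93 CPM in M1, and Lif, which signals through Stat3, at 2.66 CPM in M2 and 0.328 CPM in M1. Tnf had 2 reads in M2 and 122 reads in M1, a log2 ratio of -5.07 with an interval of -9.15 to -4.21. Il1a and Cx3cl1 were the others called lower. In the interferon list 1 gene was higher (Gbp2) and 1 lower (Ifi44) of 22, with a median of -0.72, and none of 16 MHC and antigen processing genes was called.

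Signalling and positional genes gave smaller counts. In the BMP and TGF-beta list, 1 of 26 genes was higher and 5 lower. The BMP target Id1 was at 60.2 CPM in M2 and 15.4 CPM in M1, not called with scaling by total counts at 1.96, and Id3 was at 192 CPM in M2 and 56.9 CPM in M1. The BMP antagonist Grem1 was at 0.858 CPM in M2 and 23.7 CPM in M1, and Bmp5 had 0 reads in M2 and 55 reads in M1, at least 20.5-fold lower. Of 30 Wnt pathway genes, 6 were lower and none higher, including the nuclear effector Lef1 at 0.919 CPM in M2 and 16.1 CPM in M1 and the Wnt agonist Rspo1 at 0.0766 CPM in M2 and 6.23 CPM in M1. Axin2, a general Wnt target, was at 2.39 CPM in M2 and 2.00 CPM in M1. Of 37 axon guidance genes, 2 were higher and 3 lower, beside 1.20% higher and 7.37% lower over all measured genes. The higher ones were Sema3a, a secreted repellent, at 134 CPM in M2 and 18.0 CPM in M1, and Epha5 at 121 CPM in M2 and 8.83 CPM in M1. Among the lower ones, the netrin receptor Dcc was at 1.04 CPM in M2 and 15.4 CPM in M1. Of 27 neural adhesion genes, 4 were lower, among them the mesenchymal cadherin Cdh11 at 18.5 CPM in M2 and 145 CPM in M1.

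Hox genes record position along the body axis. None of 13 measured genes of groups 1 to 5 was called, with a median of -0.65. In that list 11 of the 13 had negative ratios. Of 7 measured genes of groups 6 to 9, 4 were lower (Hoxa6, Hoxa7, Hoxc6 and Hoxc8), with a median of -2.09. Hoxc8 had 2 reads in M2 and 133 reads in M1, a log2 ratio of -5.19 with an interval of -9.27 to -4.33. It was at 25.5 CPM in fresh bowel cells, 12.4 CPM in tdTomato- spheroid cells and 0.294 CPM in tdTomato+ spheroid cells. The 3 measured HoxB genes of these groups were not called, with log2 ratios of -0.24 for Hoxb6, 0.19 for Hoxb7 and -1.45 for Hoxb9. The difference between the lists was not tested.

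The called genes were set against the sort of the mixed spheroids, which uses neither the M2 nor the M1 library. M2 cultures start from such tdTomato+ spheroid cells, however, and the scaling is shared. The overlap is therefore a description and not an independent check. There, 926 of 13951 measured genes (6.64%) were higher and 1737 (12.5%) lower in tdTomato+ than in tdTomato- cells by the same rule. Of the 170 genes higher in M2, 67 (39.4%) were higher in tdTomato+ cells, against 6.19% of all 14141 genes measured in M2 and M1. Those 67 are 7.24% of the genes called higher in that sort. In the opposite direction, 13 of the 170 (7.65%) were lower in tdTomato+ cells. Of the 1042 genes lower in M2, 560 (53.7%) were lower in tdTomato+ cells, against 9.26% of all measured, and they are 32.2% of the genes called lower in that sort. In the opposite direction, 27 of the 1042 (2.59%) were higher in tdTomato+ cells. The remaining 482 genes lower in M2 were not called lower in tdTomato+ cells. They include genes with smaller differences, such as Mmp12 at a log2 ratio of -1.92 in that sort, and genes not measured there, such as Lrrn4. Median levels of the genes lower in M2 were 0.413 CPM in M2, 4.63 CPM in M1, 0.588 CPM in tdTomato+ spheroid cells, 3.04 CPM in tdTomato- spheroid cells and 11.1 CPM in fresh bowel cells. Their highest value among all 7 libraries fell in fresh bowel cells for 386 of 1042 genes and in M1 for 187. The genes higher in M2 had medians of 15.1 CPM in M2, 2.168 CPM in M1 and 10.2 CPM in tdTomato+ spheroid cells, and 57 of the 170 had their highest value in M2. Across the 14141 genes, Pearson's r of log2(CPM + 0.05) was 0.909 for M2 with M1, 0.933 for M2 with tdTomato+ spheroid cells and 0.886 for M1 with tdTomato+ spheroid cells, a description in which the points are genes and not replicates.

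Xist, transcribed from the inactive X of females, was at 46.4 CPM in M2 and 172 CPM in M1, and 4 Y-linked genes summed to 252 CPM in M2 and 107 CPM in M1. Every pool was described as 2 females and 1 male. None of these genes was called, with log2 ratios of -1.72 for Xist and a median of 1.31 for the Y-linked genes. The part of male and female cells in the other differences was not tested.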

How the data were processed

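The authors deposited 1 table of CPM values (read counts per gene scaled to a common total) per Entrez gene for 7 libraries. Per the labels' protocols, RNA was made into cDNA with SMART-Seq v4 and into libraries with Nextera XT. The submitters' processing notes name mm10, HISAT, featureCounts and bcl2fastq 2.17, per the labels, and no settings. Whole reads were recovered from the CPM steps, 100% of values lying within 0.05 of a whole read, with totals of 51885106 to 65301500 reads. Of 27179 identifiers, 25275 matched RefSeq names and 1904 did not. The reads carry no molecular identifiers, so intervals and floors cover counting error only.

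TMM scaling used the 7 libraries together (edgeR 4.0.16, R 4.3.3), and ratios were taken in Python 3.11.15 with a prior of 2 reads. DESeq2 1.42.0 gave size factors for an alternative. A count test needs replicates and was not run. The size rule was tested on simulated data. Named genes were the 15 highest and 15 lowest ratios at 10 CPM or more, the 10 largest gains and 10 largest losses in CPM, without unnamed models, Xist and Y-linked genes, and the members of 47 gene lists (902 of 903 genes found). The genes and lists were chosen with earlier results of these data known, and 2 lists were added after values were seen. Alternatives were other scalings, filters, a prior of 0.5 read and 2-fold and 8-fold rules. A few list members are counted but not reported by name here.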

Additional observations from a re-analysis of the deposited data

How the results depend on the processing

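Under scaling by total counts, DESeq2 size factors, TMM over M2 and M1 alone and a prior of 0.5 read, the number of genes higher in M2 lay between 142 and 184, and the number lower between 994 and 1194, against 170 and 1042. Without a filter on low values 291 genes were higher and 1638 lower, because more genes entered. At 5 CPM or more 125 were higher and 492 lower. The 2-fold rule gave 894 higher and 2354 lower, and the 8-fold rule 67 higher and 527 lower. Leaving out genes that were called lower in tdTomato+ than in tdTomato- spheroid cells, an alternative chosen after seeing the data, left 157 higher and 482 lower. Of 781 genes named by rule or list, 197 were called. No called gene changed direction under the 4 scaling and prior alternatives, whose shifts were too small to reverse a 4-fold ratio. In at least 1 of the alternatives, 13 called genes lost the call and 16 others gained one. Of 275 recomputed list medians, 9 changed sign, in 5 lists (Schwann myelin, immediate early and heat shock, MHC and antigen processing, basement membrane and integrin, pancreatic acinar) and in skeletal muscle, which rests on 1 gene. Only 209 of the 275 stayed between the median lower and median upper ends of their members' counting intervals. The largest shift of a list median was 5.33 on the log2 scale. No paired analysis was possible because each method has 1 library. A gene with 0 reads could stand at up to 0.0459 CPM in M2 or 0.0578 CPM in M1.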
